A study of Mus musculus with 12 samples.

Results

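The genes described here are 10 antiviral effectors that interferon induces, Ifit1, Ifit2, Ifit3, Rsad2, Isg15, Usp18, Oasl2, Ifi44, Ifih1 and Bst2, measured in adult mouse cardiac myocytes cultured with or without recombinant connective tissue growth factor (CTGF, also named CCN2). They were found by symbol: every probe of the array whose platform annotation carries one of these names was taken, which gave 14 of 45281 probes for 9 of the 10 genes. No probe is annotated to Ifi44, so Ifi44 was not analysed here. The list of genes was drawn up with earlier results of these data known, so counts among them are descriptions. The myocytes came from C57BL/6 hearts at an age of 12 to 16 weeks, were freed by collagenase perfusion and were plated on laminin in medium with BSA, penicillin-G and the myosin inhibitor BDM. All cultures shared these conditions, and they ran for 48 h in 2 groups, 6 with 200 nmol/L CTGF and 6 with no CTGF. RNA was labelled with biotin and read on 12 single-colour Illumina bead arrays. The labels do not say whether the 6 samples of a group came from separate hearts, so the p-values rest on sample-to-sample spread that could be technical.

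Interferons are secreted proteins that cells release when they sense viral nucleic acid. Their receptors act through JAK kinases on transcription factors, among them STAT2 and IRF9, which bind a short promoter element, the interferon-stimulated response element, and switch on a large set of genes whose products block viral replication. Heart cells carry a basal level of this programme, which is one of the known defences of the myocardium against cardiotropic viruses. Among the genes here, the IFIT proteins bind viral RNA, Rsad2 encodes viperin, a radical SAM enzyme, Isg15 encodes a ubiquitin-like modifier, and Usp18 removes that modifier and restrains the interferon receptor. Oasl2 belongs to the oligoadenylate synthetase family, Ifih1 encodes MDA5, a sensor of double-stranded RNA, and Bst2 encodes tetherin, which holds budding virions at the cell surface.

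The promoter sequences were not used to choose the genes. The genes were listed as interferon-induced, though, and interferons act through the response element named above. Its presence is therefore not independent of that choice. RefSeq promoter windows (GRCm38.p6, 250 bases before to 50 after each annotated start) were at hand for 9 of the 10 genes, Usp18 being the one without. Each was searched on both strands for the core of the interferon-stimulated response element, taken as the letters GAAA, any 2 bases and GAAA again, and overlapping matches were counted separately. Of the 9 genes, 5 had a match within the 250 bases before a start, against 2.98% of 32851 windows of that length in the table. Isg15 had 3 overlapping matches, Ifit1, Ifit3 and Bst2 had 2 each, and Rsad2 had 1. At least 2 matches were found in 0.18% of all windows. The 5 stretches below are shown because they hold these matches, and the capitals mark them. They lie at chr19:34640765-34640884, plus strand (Ifit1), chr19:34583353-34583472, plus strand (Ifit3), chr12:26456473-26456592, minus strand (Rsad2), chr4:156200819-156200938, minus strand (Isg15) and chr8:71537503-71537622, minus strand (Bst2), and each is 120 bases long, written 5′ to 3′ along the gene.
Ifit1: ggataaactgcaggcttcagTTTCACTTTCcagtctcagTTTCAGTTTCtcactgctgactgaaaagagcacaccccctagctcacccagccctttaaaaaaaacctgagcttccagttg
Ifit3: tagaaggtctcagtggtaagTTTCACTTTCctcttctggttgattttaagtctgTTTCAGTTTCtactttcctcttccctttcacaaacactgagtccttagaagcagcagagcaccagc
Rsad2: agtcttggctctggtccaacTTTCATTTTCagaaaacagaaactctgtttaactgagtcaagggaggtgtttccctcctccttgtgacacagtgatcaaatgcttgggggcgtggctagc
Isg15: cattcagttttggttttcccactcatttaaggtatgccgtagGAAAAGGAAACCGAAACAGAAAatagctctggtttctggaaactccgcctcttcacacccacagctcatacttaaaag
Bst2: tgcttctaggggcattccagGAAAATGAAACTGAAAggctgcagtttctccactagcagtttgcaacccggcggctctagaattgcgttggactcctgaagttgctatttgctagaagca
The runs in Isg15 and Bst2 hold matches that overlap each other. In Ifit1, Ifit3 and Rsad2 the capitals read as the opposite strand of the core. The 2 windows of Ifit2 and the windows of Oasl2 and Ifi44 held no match, and Ifih1 had 1 match at 32 bases after the start. The gamma-activated site TTCNNNGAA was found in the windows of Ifit2 and Bst2 only among these 9, and in 8.3% of all windows. A match is a string of letters and does not show that a factor binds there.

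Of the 14 probes, 11 were tested because 6 or more arrays gave them a detection p under 0.05, and these covered 7 genes. The brightest probe of each of these 7 genes was detected on all 12 arrays, so none entered the test through one group alone. With CTGF, all 7 of these genes were lower, from 8.37-fold for Rsad2 to 2.38-fold for Bst2, by limma at a Benjamini-Hochberg adjusted p under 0.05. The same call was made for 19.7% of the 15038 probes tested. The median log2 fold change (CTGF minus control) of the 7 genes was -2.06, and that of all tested probes was 0.05. At least 2-fold lower calls made up 3.32% of tested probes and included all 7 genes. On 6 of the 7 genes every CTGF array lay below every control array, which held for 10.7% of tested probes, and Bst2 was the exception. Normalized intensities below are on the log2 scale after background correction with an offset of 16, which shrinks the change of dim probes.

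**Figure D1:**
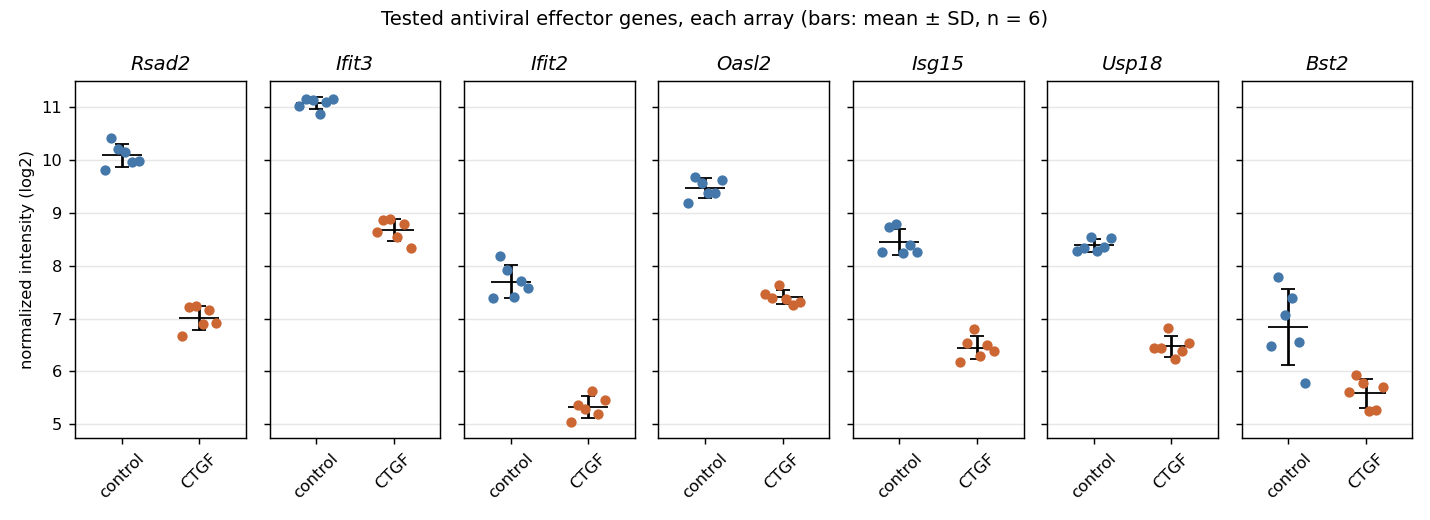
Normalized intensity (log2, y axis) of the brightest probe of each of the 7 tested genes, 1 point per array, with the control arrays at the left (blue) and the CTGF arrays at the right (orange) of each panel and bars for the mean ± SD (n = 6). The groups are apart in 6 panels and overlap for Bst2, where 1 control array at 5.79 lies among the CTGF arrays.

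Rsad2, whose product viperin converts CTP to a chain-terminating analogue, was measured by probe ILMN_1225204. Its raw intensity was 698.5 to 1190 in control arrays, with a median of 1089, and 155.2 to 239.5 with CTGF, with a median of 213.8. On the log2 scale the control arrays had a lowest value of 9.81, a median of 10.06 and a highest value of 10.40, and the CTGF arrays had 6.67, 7.04 and 7.23. The groups were separated by a gap of 2.58. The log2 fold change was -3.06 ± 0.12 (SE), with a limma adjusted p of 1.94e-10. Among the 15038 tested probes the fold change of Rsad2 ranked 3 from the lowest. In the gene table used here the next protein-coding gene to Rsad2 on chromosome 12 is Cmpk2, a nucleotide kinase that supplies CTP. Cmpk2 fell too, with a log2 fold change of -2.31 ± 0.11 (SE), from a control level of 7.08 ± 0.10 (SD, n = 6) to a level detected on 3 of 6 CTGF arrays.

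The Ifit genes, which encode tetratricopeptide proteins, include Ifit2 and Ifit3, which lie side by side on chromosome 19. Ifit3 was measured by ILMN_2944666, with control values from 10.86 to 11.15 (median 11.11) and CTGF values from 8.33 to 8.87 (median 8.70). The control arrays thus kept within a narrow range and all lay above the CTGF arrays. Ifit3 changed by -2.40 ± 0.10 (SE, limma adjusted p = 3.09e-10). Ifit2, at ILMN_2981167, ranged from 7.38 to 8.18 in controls (median 7.64) and from 5.05 to 5.62 with CTGF (median 5.33). Among controls Ifit2 thus had a larger spread than Ifit3, and again the groups did not overlap. The change of Ifit2 was -2.36 ± 0.14 (SE, limma adjusted p = 5.27e-09). A second Ifit2 probe, ILMN_2981169, gave -2.13 ± 0.15 and a second Ifit3 probe, ILMN_1230458, gave -1.50 ± 0.16.

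Ifit1 had 1 probe, ILMN_2774340, and it was not well above background on any of the 12 arrays, with detection p from 0.17 to 0.89. Its log2 level was 4.38 ± 0.08 (SD, n = 6) in controls and 4.43 ± 0.11 (SD, n = 6) with CTGF. No fold change is given, since neither group was measured above background. The same held for Ifih1, whose only probe ILMN_2648913 had detection p from 0.12 to 0.81 and levels of 4.52 ± 0.13 (SD, n = 6) and 4.43 ± 0.09 (SD, n = 6). Ifit1 and Ifih1 were therefore not assessed for a change, and the promoter matches of Ifit1 shown above have no measured level to stand beside.

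Isg15 and Usp18 act in the same modification cycle, one as the tag and the other as the protease that removes it. Isg15, at ILMN_1256257, ranged from 8.23 to 8.78 in controls (median 8.32) and from 6.18 to 6.80 with CTGF (median 6.44). Usp18, at ILMN_3131679, ranged from 8.27 to 8.55 in controls (median 8.34) and from 6.24 to 6.82 with CTGF (median 6.44). For both genes every control array was above every CTGF array, with gaps of 1.44. Isg15 changed by -1.99 ± 0.13 (SE, limma adjusted p = 1.14e-08) and Usp18 by -1.91 ± 0.10 (SE, limma adjusted p = 1.56e-09). The difference between the 2 fold changes was -0.08 on the log2 scale, with a 95% interval from -0.33 to 0.16. The 3 other tested genes of ISG15 conjugation fell as well. They were the activating enzyme Uba7 (-1.36 ± 0.10, SE), the ligase Trim25 (-1.08 ± 0.13) and the conjugating enzyme Ube2l6 (-0.41 ± 0.13). The call of Ube2l6 was lost in the unnormalized arrays, with a limma adjusted p of 0.249, and after median scaling, with 0.191.

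Oasl2, a member of the oligoadenylate synthetase family with ubiquitin-like repeats, had 3 probes. The brightest, ILMN_2954868, ranged from 9.19 to 9.67 in controls (median 9.47) and from 7.26 to 7.63 with CTGF (median 7.38). The groups were apart by 1.56. The change was -2.06 ± 0.10 (SE, limma adjusted p = 6.68e-10). The remaining Oasl2 probe, ILMN_2552783, was detected on 2 control arrays and on no CTGF array and was not tested. Oasl1, the next protein-coding gene to Oasl2 in the gene table, changed by -1.37 ± 0.13 (SE).

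Bst2 was the least clear of the 7. Its probe, ILMN_1224110, ranged from 5.79 to 7.77 in controls (median 6.82) and from 5.26 to 5.93 with CTGF (median 5.66). Control replicate 6 was the low control array, and CTGF replicate 2 lay above it. The SD of 0.71 among controls was the largest of the 7 genes. Bst2 changed by -1.25 ± 0.26 (SE, limma adjusted p = 0.00134), and the change without control replicate 6 was -1.46. Among all tested probes its fold change ranked 291 from the lowest.

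**Figure D2:**
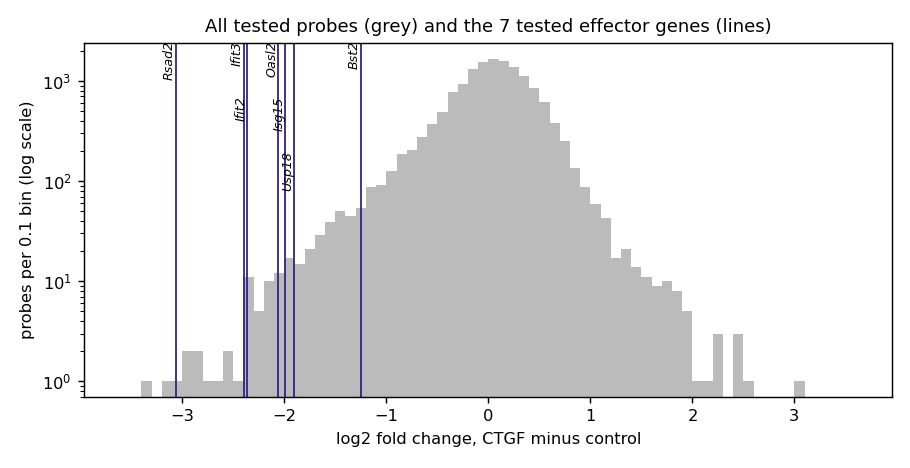
Histogram of the log2 fold change (CTGF minus control, x axis) of all 15038 tested probes, with the number of probes per bin on a log scale (y axis), and a line at each of the 7 tested genes. The lines stand in the lower tail, from -3.06 for Rsad2 to -1.25 for Bst2, while the median of all probes is 0.05.

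The fold changes of the 7 genes were ordered, and each gene was compared with its neighbour in that order by a two-sided exact permutation test over the arrays, with p-values adjusted over 10 differences, 6 of neighbours and 4 of probes. The smallest p that 6 against 6 arrays can give is 0.00216. Rsad2 fell more than Ifit3, by a difference of -0.67 ± 0.12 (SE, exact adjusted p = 0.0108), and by -0.32 without background correction (exact unadjusted p = 0.00866). The other 5 differences did not pass. Ifit3 and Ifit2 differed by -0.03, with a 95% interval from -0.42 to 0.35, and Usp18 and Bst2 by -0.65, with an interval from -1.38 to 0.07. Without background correction the order was not the same, and Ifit2, at -1.34, lay nearer to 0 than Ifit3 at -2.21 (exact unadjusted p = 0.00216) and Oasl2 at -1.70 (exact unadjusted p = 0.00433). The differences of Oasl2 from Isg15 (-0.29) and of Usp18 from Bst2 (-0.67) each had an exact unadjusted p of 0.00649 in that setting, so which neighbours differ depended on the background correction.

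Where a gene had 2 tested probes, both were lower with CTGF, and the brighter one was used above. The second probe gave -1.14 ± 0.19 (SE) for Usp18 (ILMN_3054914) and -1.04 ± 0.15 for Oasl2 (ILMN_2599154, detected on 5 of 6 CTGF arrays). That of Usp18 was detected on all 6 control arrays and on 2 of 6 CTGF arrays, so the control group alone met the filter. The brighter probe changed more by -0.90 ± 0.20 (SE) for Ifit3 (exact adjusted p = 0.0108), by -0.76 ± 0.24 for Usp18 (exact adjusted p = 0.0162), whose second probe was mostly at background with CTGF, and by -1.02 ± 0.22 for Oasl2 (exact adjusted p = 0.0144). With CTGF the second probe was dim for Ifit3, Usp18 and Oasl2, at mean log2 levels of 4.99, 4.79 and 5.01. The offset shrinks the change of such probes, so these differences cannot be told apart from an effect of brightness. For Ifit2 the difference of -0.23 did not pass (exact adjusted p = 0.284), with an interval from -0.60 to 0.14. The direction was the same for both probes of each of these 4 genes.

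**Figure D3:**
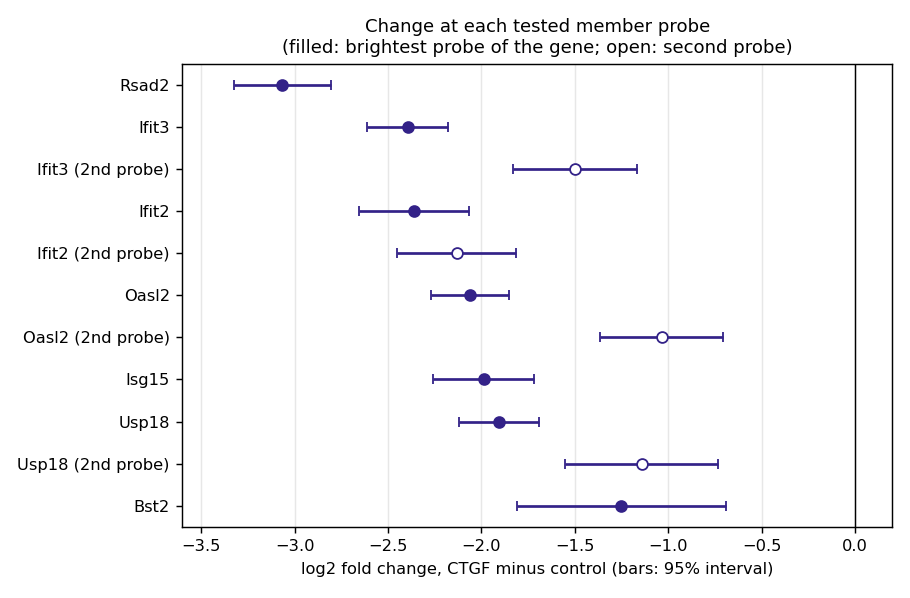
Log2 fold change (CTGF minus control, x axis) of each of the 11 tested probes with its 95% interval, ordered by gene, with filled points for the brightest probe of a gene and open points for its second probe. All 11 intervals lie below 0, and the open points of Ifit3, Oasl2 and Usp18 are nearer to 0 than the filled ones.

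The position of single arrays within a group was counted over the 7 genes. Control replicate 2 was the highest control for 4 of the 7 genes and lay 0.32 above the control mean on average, on the log2 scale. Control replicate 1 was the lowest for 4 and lay at -0.23. It was also the array with the fewest detected probes, 14747, against 15082 to 16390 on the CTGF arrays and up to 15743 among controls, and the part of this in the result was not tested. CTGF replicate 3 was the highest of its group for 5 genes, at 0.21, and CTGF replicate 1 the lowest for 3, at -0.13. These spreads were small beside the median change of -2.06. The genes most like the mean of the 7 in these deviations from the group means, over 12 arrays, were Itih4 (Pearson r = 0.90), Rnf214 (0.90), Chordc1 (0.89), Tagln2 (0.87) and Psat1 (0.86). Of these 5, Rnf214, Chordc1 and Psat1 had fold changes above 0 (0.50, 0.33 and 0.67), opposite to the effectors. By the whole profile over the 12 arrays, which mostly restates the gap between the groups, the closest were Igf2, Ly6c1, Psmb8, Irf1 and Egfl7, with r of 0.99 each. These correlations were the highest of many and are descriptions.

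Among the other antiviral effectors on a list of 35 genes, 21 were tested, and all 21 fell. Their median log2 fold change was -1.16, in a range from -2.56 to -0.55. Lower calls made up 19.7% of all tested probes. Of the 21 genes, 15 were detected on all 12 arrays, and these 15 all fell. The rest, among them Cmpk2 (3 of 6 CTGF arrays) and Mx2 (2 of 6), were detected on all 6 control arrays. They could thus pass the detection filter through the control group alone. The largest falls were in Ifi27l2a (-2.56 ± 0.10, SE), Cmpk2 (-2.31), Samd9l, which restricts poxviruses (-1.97 ± 0.08), and the ADP-ribosyltransferase gene Parp14 (-1.86 ± 0.10). No normalization between arrays or median scaling ended the calls of Dtx3l and Samhd1 and left 19 lower. The probes of Mx1, Oas1a, Oas1b, Oas3 and Parp9 were not well above background on any array, as for Ifit1 and Ifih1.

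The upstream genes were less uniform. Of 12 tested genes of interferon signalling and transcription, 6 fell, 1 rose and 5 did not pass, with a median of -0.39. Irf7, which amplifies interferon production, changed by -2.25 ± 0.10 (SE), Irf1 by -1.22 ± 0.08 and Irf9, the DNA-binding subunit of the complex that acts on the response element, by -1.01 ± 0.11. Stat2, another subunit, passed the detection filter through its 6 control arrays and was detected on 1 of 6 CTGF arrays, so its fitted change of -0.90 was taken against a group mostly at background. Irf3 (-0.11 ± 0.09) and Irf2 (-0.10 ± 0.10), which bind similar elements, did not pass the test. Stat3, a transducer of gp130 cytokines, was the 1 rise (0.62 ± 0.18). Jak1 (-0.68 ± 0.15) lost its call in the unnormalized arrays (limma adjusted p = 0.067).

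Of the interferons, Ifna1 was the 1 that could be tested, detected on 5 of 6 arrays in each group, and at -0.13 ± 0.13 (SE) it did not pass (limma adjusted p = 0.449). The probes of Ifnb1, Ifna4, Ifnk and Ifnl3 were not well above background on any array, and neither was the probe of the receptor chain gene Ifnar1. Of 6 tested ligand and receptor genes, 2 fell, 1 rose and 3 did not pass. The falls were in Ifngr1 (-0.45 ± 0.11, SE) and Il10rb (-0.40 ± 0.12), a shared chain of the interferon lambda and interleukin-10 receptors. Both calls were lost in the unnormalized arrays and after median scaling, where Il10rb turned to 0.05 and 0.03. The rise was in Ifnlr1 (0.92 ± 0.16), the other chain of the interferon lambda receptor. Ifnar2, the partner of Ifnar1, was at -0.17 ± 0.11 and did not pass (limma adjusted p = 0.243).

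Of 8 tested sensors and adaptors, 4 fell and 2 rose, and all are named. The falls were in Dhx58, a regulator of RNA sensing (-1.16 ± 0.11, SE), the DNA sensor Cgas (-0.61 ± 0.10), Zbp1 (-0.54 ± 0.13) and Ddx58, which encodes RIG-I (-0.53 ± 0.15). The last 2 were named after their values were seen, and both fell short in the unnormalized arrays (limma adjusted p = 0.107 and 0.0692). The rises were in the adaptor Myd88 (0.65 ± 0.11) and the kinase Tbk1 (0.64 ± 0.08). Of the 2 tested probes of Myd88, 1 was called higher. Sting1 was not tested, being detected on 5 control arrays and 0 CTGF arrays. Of 8 tested restraints on interferon signalling, 4 rose and 1 fell. The rise of Ptpn2 (0.34 ± 0.12), detected on 1 of 6 control arrays, was lost without background correction (limma adjusted p = 0.0667), and Pias1 was called higher in the unnormalized arrays and after median scaling only. The fall was in Rnf125, a ubiquitin ligase for RIG-I (-0.86 ± 0.16), and the rises reached 0.51 ± 0.13 for Nlrx1. Socs1 was not well above background on any array. Both directions of call together covered 43.5% of tested probes, 23.8% higher and 19.7% lower.

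**Figure D4:**
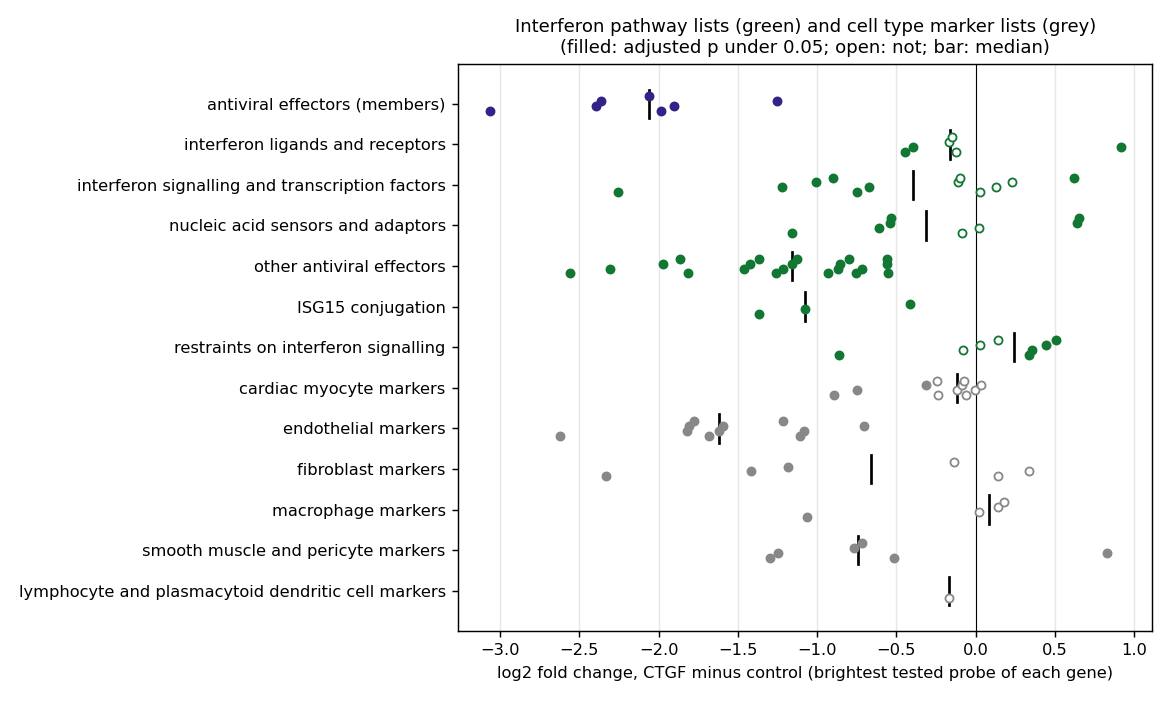
Log2 fold change (CTGF minus control, x axis) of each tested gene by list, with the 7 effectors in purple, interferon pathway lists in green and cell type marker lists in grey, filled where the adjusted p was under 0.05, and a bar at each median. All points of the effectors, of the other antiviral effectors and of the endothelial markers are filled and below 0, while the signalling, sensor and restraint lists spread to both sides.

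Markers of other cell types did not all move alike. Against lower calls for 19.7% of all tested probes, all 11 tested endothelial markers of 12 listed fell. Their median log2 fold change was -1.62, led by the tight junction gene Cldn5 (-2.62 ± 0.11, SE). Their summed linear level was 7334 to 8808 in control arrays and 2192 to 2568 with CTGF. Of the 11, 10 were detected on all 12 arrays, and Tie1 on 6 control and 2 CTGF arrays. The groups overlapped for Tie1, and the control group alone met the filter. Kdr was the 1 endothelial marker not well above background on any array. The part of these cells in the fall of the antiviral genes was not tested, and in a whole culture fewer cells of a type and less RNA per cell cannot be told apart. Smooth muscle and pericyte markers went 5 lower and 1 higher of 6 tested. Of these 6, 3 were detected on all 12 arrays, 2 of them lower and 1 higher. The summed levels of the 6 were 3963 to 4688 in controls and 2545 to 3123 with CTGF. Of 6 tested fibroblast markers, 3 fell, the receptor gene Pdgfra (-2.33 ± 0.10, SE), Tcf21 (-1.42 ± 0.12, detected on 2 of 6 CTGF arrays) and Pi16 (-1.18 ± 0.15), and for each the groups did not overlap. The summed fibroblast level did overlap (4037 to 7289 and 5064 to 5978), but most of it came from Dcn, whose brightest probe was at -0.14 ± 0.15. Of the 3 tested probes of Dcn, 1 was called higher. Like the brightest probe of Dcn, Col1a2 (0.33 ± 0.14) and Lum (0.14 ± 0.10) did not pass. Col1a2 and Lum were called higher in the unnormalized arrays and after median scaling. Among untested fibroblast markers, Col3a1 was detected on 0 control and 5 CTGF arrays, and Col1a1 on 1 and 3. The part of fibroblasts in the result was not tested either.

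Of 4 tested macrophage markers, 1 passed, Lyz2, which was lower with CTGF. It was detected on 6 control arrays and 2 of 6 CTGF arrays, so its fitted change of -1.06 was taken against a group mostly at background. The other 3 tested, Csf1r (0.14 ± 0.17, SE), Cd14 (0.18 ± 0.16) and Mrc1 (0.02), did not pass. Csf1r was detected on 3 control and 6 CTGF arrays, and Cd14 on 2 and 5. The 4 markers' summed level was 120 to 167 in controls and 111 to 140 with CTGF. Among the untested macrophage markers, C1qc was detected on 3 control arrays and no CTGF array, with groups only 0.0014 apart on the log2 scale. C1qb was detected on 2 control arrays and no CTGF array. Ptprc, C1qa, Cx3cr1 and Fcgr1 were not well above background on any array. The part of macrophages in the result was not tested. Of 5 lymphocyte and plasmacytoid dendritic cell markers with a probe, Siglech was the 1 tested, at -0.17 ± 0.13 (limma adjusted p = 0.317), and Cd3e, Cd3g and Ms4a1 were not well above background on any array. The myocyte markers were detected on all arrays, and 3 of 11 fell, led by Tnni3 (-0.89 ± 0.10). Their summed level was 269286 to 289760 in controls and 249368 to 276629 with CTGF. Much of it came from probes near the top of the scale, such as Tnnc1 and Myl2 with raw values up to 64784 and 65657, so the sum does not show whether the myocyte level held.

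The response element was also counted in the promoters of all tested genes that have a window. The element was found in 3.58% of 7263 genes. Among genes called at least 2-fold lower, which include the effectors, 26 of 250 had it (10.4%), and among genes called at least 2-fold higher, 1 of 96 (1.04%). Of the other antiviral effectors, 6 of 15 with a window had it. These shares are a description of the annotated windows.

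The scaling between arrays set the balance of all calls. Higher calls made up 54.7% of all calls after quantile normalization. In the unnormalized arrays they made up 87.2%, with a median log2 fold change of all probes of 0.34, and after median scaling 85.9%, with a median of 0.32. After cyclic loess they made up 47.4%, with 3362 lower and 3032 higher calls. The 7 effectors were lower in each of these settings. Their median was -1.64 in the unnormalized arrays and -1.67 after median scaling, both set against these shifted medians. Without background correction the median was -1.41, and the authors' normalized values gave -1.42. Ifit2 was then over 1.5 times smaller on the log2 scale, at -1.34 without background correction, as was Bst2 at -0.68, and both kept their call.

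**Figure D5:**
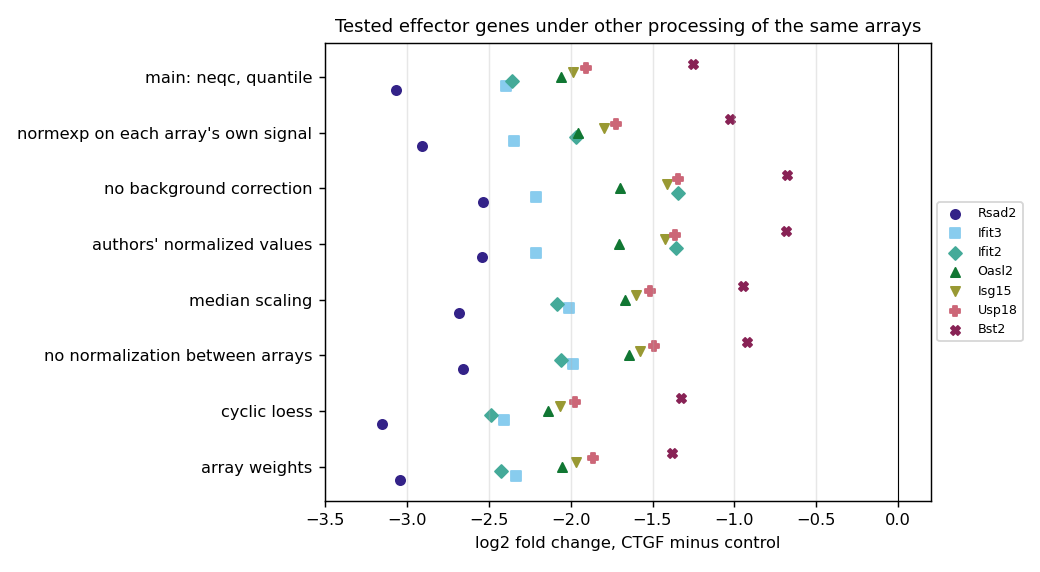
Log2 fold change (CTGF minus control, x axis) of the 7 tested genes, 1 symbol per gene, under the main processing and 7 other settings (rows). All symbols lie below 0 in every row, with Rsad2 lowest and Bst2 highest, and those of Ifit2 move most, from -2.36 to -1.34 without background correction.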

How the data were processed

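Per the file headers, the authors deposited for each array a mean bead intensity of every probe, linear and not normalized, and beside it a detection p-value. A further deposited table holds their normalized intensity, which has nearly the same distribution in every column. The scanner software and any earlier background step were not given in the sources used here. Sample titles gave the groups and replicate numbers, and a technical batch shared by a whole group cannot be told apart from CTGF.

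Here the neqc function of limma 3.58.1 (R 4.3.3) estimated background through the detection p-values, applied an offset of 16 and quantile normalization, and took log2. The fit (lmFit, then eBayes) covered 15038 of 45281 probes, those with a detection p under 0.05 on at least 6 of 12 arrays. Tests were two-sided, and Benjamini-Hochberg adjustment ran over all fitted probes with a threshold of 0.05. A gene was represented by its brightest fitted probe. Of all probes, 34885 have 1 symbol, 18 several and 10378 none, and list genes were named through Entrez identifiers (34807 probes) of a GRCm38.p6 gene table. Members and lists were chosen with earlier results of these data known. Named were all members, up to 4 called genes per list with the largest change, and the 5 most alike genes, and other names were added after their values were seen. Same-numbered replicates of the groups correlated between -0.07 and 0.05 in their deviations from the group means, so numbers were not taken as pairs. The fit was tested on simulated intensities. The number of arrays limits the precision, with a median SE of 0.12 over fitted probes.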

Additional observations from a re-analysis of the deposited data

Results flagged for a closer look

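In the 22 groups of 6 arrays examined (11 tested probes in 2 groups), 0 arrays stood apart from the rest of their group by Dixon's criterion, where chance marks about 1 group in 20.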

How the results depend on the processing

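All 11 tested probes of the effectors stayed lower and past the threshold in every setting that tested them, and 7 genes were called lower in each. These settings were 2 other background corrections, 3 other scalings, the authors' values, 3 other detection filters, 1 probe per gene (where 7 probes were fitted, all lower), array weights, a trended variance, an adjusted p under 0.01, the replicate block, and each array left out in turn. With the replicate block, for numbers that do not pair the samples, there were 7 genes and 11 probes lower, and 2789 lower and 3372 higher calls over all probes, against 2966 and 3577. Leaving out 1 array in turn gave 7 genes and 11 probes each time, with 0 higher, and 2692 to 2942 lower and 3158 to 3584 higher calls over all probes. Rsad2 ranged from -3.12 to -2.99 and Bst2 from -1.46 to -1.07 there, with adjusted p up to 0.00415 for Bst2.

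Calls over all probes were 1067 lower and 7261 higher in the unnormalized arrays, 1146 and 6959 after median scaling, and 1925 and 2229 with 1 probe per gene, which fits fewer probes. In both of these scalings 0 ligand and receptor genes were lower, 3 signalling genes were higher, 2 sensors were lower, 2 fibroblast markers were higher and 3 smooth muscle markers were lower. Myocyte markers called lower were 5 without background correction and 1 without normalization. The causes were not tested. The second probes of Ifit3, Usp18 and Oasl2 gave -0.67, -0.47 and -0.43 without background correction. Signal near background limits the sizes of probes detected on part of the arrays.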
